A study of Mus musculus with 12 samples.

Results

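The small RNAs of the caput and the corpus epididymidis were compared in mice of 13 months, within each of 2 genotypes. The comparison uses 4 of the 12 samples of the study (10 of which are small RNA libraries): the caput and the corpus of wild-type (WT) mice and the caput and the corpus of knockout (KO) mice that lack Gpx5, the gene of a glutathione peroxidase secreted by the epididymis. Membership follows from the labels alone (region, genotype, age), and a difference is described as shared when both genotypes gave it in the same direction. All animals were C57BL/6 mice, and tissue came from 7 mice of each genotype. The labels do not state whether all 7 entered each pool. The tissue was pooled before sequencing, so each group is 1 library, no difference has a replicate check, and no test was possible. Intervals given below are 95% intervals for counting error only, and the reads carry no molecular identifiers. Handling differed with region: the caput was punctured and kept in buffer so that spermatozoa could leave, while the corpus went to RNA extraction directly. Region and handling cannot be told apart. The labels used here do not describe the KO allele, and small RNAs hold no markers that define each region. RNA of 18 to 40 nt was selected, and the labels name a GAIIx or HiSeq 2000 instrument without saying which library ran on which.

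The epididymis is the duct in which sperm mature after they leave the testis. Its first region, the caput, is highly secretory, and sperm then pass through the corpus to the cauda, where they are stored. miRNAs are short guides that direct Argonaute proteins to messenger RNAs through their seed, bases 2 to 8. piRNAs are longer guides made in male germ cells, most of which begin with U. Fragments of tRNAs, above all those that start at the first base of tRNA-Gly, tRNA-Glu and tRNA-Val, are abundant in epididymal tissue and in maturing sperm. The 3′ end of a mature tRNA is the triplet CCA, which is added after transcription.

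The first set of sequences holds mature miRNAs with a shared difference, from RefSeq (build GRCm38.p6), with the seed in capitals. The first 3 were higher in caput, and the others were lower in caput.
miR-148a-3p: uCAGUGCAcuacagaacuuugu
miR-148a-5p: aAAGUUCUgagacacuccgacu
miR-146b-5p: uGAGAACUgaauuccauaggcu
miR-196a-5p: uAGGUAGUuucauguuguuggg
miR-196b-5p: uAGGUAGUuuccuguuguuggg
miR-221-3p: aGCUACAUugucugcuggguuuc
miR-222-3p: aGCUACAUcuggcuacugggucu
miR-141-3p: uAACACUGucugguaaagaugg
miR-186-5p: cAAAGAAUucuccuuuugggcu
miR-30a-5p: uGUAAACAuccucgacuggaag
Both miR-196 forms share the seed AGGUAGU, and miR-221-3p and miR-222-3p share GCUACAU. The miR-196 forms lie at chromosome 11 (96265187 to 96265208, plus strand) and chromosome 15 (102973365 to 102973386, plus strand) for miR-196a and at chromosome 6 (52230129 to 52230150, minus strand) for miR-196b, inside HOX clusters. miR-221-3p and miR-222-3p lie beside each other on the minus strand of chromosome X (19146307 to 19146329 and 19146901 to 19146923). Chromosome 6 also holds miR-148a-3p (51269829 to 51269850, minus strand) and miR-141-3p (124717917 to 124717938, minus strand), and miR-146b-5p lies on chromosome 19 (46342790 to 46342811, plus strand).

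The second set holds other reads as the files list them, with T for U, chosen after their values were seen. It shows the short and the long form of the tRNA-Gly start (capitals mark the 18 shared bases), the leading tRNA-Val start (a common read with no shared direction), 3 reads that end in CCA (capitals), and the leading mitochondrial, Y RNA and SNORA44 reads.
tRNA-Gly start, short form: GCATTGGTGGTTCAGTGG
tRNA-Gly start, long form: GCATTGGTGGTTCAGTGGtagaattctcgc
tRNA-Val start: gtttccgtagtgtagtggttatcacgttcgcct
tRNA-Lys end: ggtccctgttcgggcgCCA
second CCA end: atcctgccgactacgCCA
next CCA end: atcccatcctcgtcgCCA
mitochondrial read: actaatcctagccctagccc
Y RNA read: ggctggtccgaaggtagtgagttatctcaa
SNORA44 read: atggagagactttgacagct

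The files list 13825045 classified reads in WT caput, 18362642 in KO caput, 29049669 in WT corpus and 8356569 in KO corpus. Of the 100 most abundant ranks of each file 9 to 11 have no line, which leaves some abundant sequences unlisted and can make 1 read or 1 miRNA look scarce. By the listed ranks beside them, these missing lines would hold 1.47 to 1.65% of classified reads in the caput libraries and 2.70 to 2.96% in the corpus libraries. Fragments of Gpx5 messenger RNA were listed at 58.3 reads per 1000000 classified reads (RPM) in WT caput and 1.31 in KO caput. Both corpus libraries listed 0, which allows up to 0.103 RPM in WT and 0.359 in KO. WT caput stood apart from the other 3 libraries by small RNAs of testis type. The summed level of miRNAs of spermatogenic cells was 16150 reads per 1000000 miRNA reads (miRNA RPM) in WT caput, 643 in KO caput, 1826 and 1956 in WT and KO corpus, and 110400 and 185700 in WT and KO testis. miRNAs of epithelium summed to 20850 and 22940 miRNA RPM in WT and KO caput and to 100500 and 96390 in WT and KO corpus, most of it miR-141-3p.

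Of 112 miRNAs with at least 100 miRNA RPM in a library of each pair, 7 were at least 2-fold higher in caput in both genotypes (6.25%) and 17 were at least 2-fold lower (15.2%), each with a counting interval that excluded 1. With the shared ones included, 36 were higher (32.1%) and 23 lower (20.5%) in WT, and 7 were higher (6.25%) and 46 lower (41.1%) in KO. The median caput over corpus difference of the 112 miRNAs was -0.03 in WT and -0.82 in KO on the log2 scale. The balance of directions thus depended on the scaling. With edgeR's TMM factors the median moved by 0.23 in WT and by 1.09 in KO, and the calls were 39 higher and 17 lower in WT and 28 and 16 in KO. With DESeq2's median-of-ratios factors it moved by -0.38 and 1.13, with 27 and 35 in WT and 27 and 16 in KO. Among called miRNAs 61.0% were higher in WT and 13.2% in KO as first scaled, 69.6% and 63.6% under TMM, and 43.6% and 62.8% under median-of-ratios factors. All miRNA differences below use miRNA RPM unless a scaling is named.

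**Figure D1:**
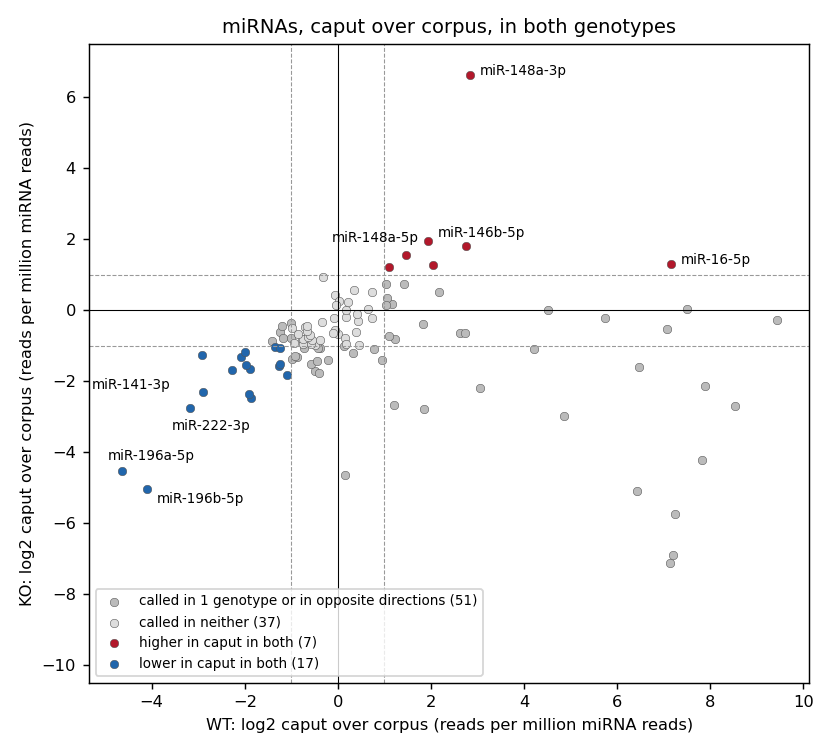
Each of the 112 miRNAs is a point, with the log2 caput over corpus ratio in WT on the x axis and in KO on the y axis, both from miRNA RPM. Dashed lines mark 2-fold. The 7 miRNAs higher in caput in both genotypes are red and the 17 lower in both are blue, with the miR-196 forms farthest towards the lower left, while several grey points at the lower right had opposite directions in the 2 genotypes.

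A name in the files covers only part of a miRNA's reads. The other miRNA reads were listed under precursor records of GenBank or Rfam. These records took 22.01% and 19.5% of miRNA reads in WT and KO caput and 19.2% and 17.5% in WT and KO corpus. How many of these reads run past the annotated 3′ end was not measured. Reads that hold the 15 inner bases of the mature miRNA, from base 4 onwards, were therefore also counted under whatever entry they were listed, for first bases within 3 nt of the usual one. Of the 7 miRNAs higher by name, 6 were also higher in both genotypes in that count, and of the 17 lower 12 were also lower. Reads that start 1 to 3 nt away from the usual first base were counted on their own too, since the most abundant reads can be missing from a file. By these other starts 3 of the 7 and 8 of the 17 had the same shared call.

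Both arms of the miR-148a hairpin were higher in caput. miR-148a-3p, which is known to target the DNA methyltransferase transcript Dnmt1, was listed at 33750 miRNA RPM in WT caput, 33470 in KO caput, 4688 in WT corpus and 342 in KO corpus. The caput libraries were close to each other, and both corpus libraries were lower by different amounts, with ratios of 7.20 (7.15 to 7.25) in WT and 97.8 (93.7 to 102.2) in KO. In corpus only 49.9% and 55.2% of its listed reads in WT and KO had no mismatch, against 93.5% and 91.7% in caput. From other starts the miRNA was at 1398 and 1602 miRNA RPM in WT and KO caput and at 1036 and 1147 in WT and KO corpus, a log2 difference of 0.43 in WT and 0.48 in KO, under 2-fold. The opposite arm, miR-148a-5p, was at 460 and 427 miRNA RPM in WT and KO caput and at 166 and 145 in WT and KO corpus. Its groups did not overlap, the ratio was 2.77 (2.64 to 2.90) in WT and 2.94 (2.74 to 3.17) in KO, and reads at other starts gave log2 differences of 1.66 and 1.31.

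miR-146b-5p, a relative of miR-146a that is known from innate immune signalling, was listed by name at 305 and 269 miRNA RPM in WT and KO caput and at 79.1 and 69.6 in WT and KO corpus. The caput over corpus ratio was nearly equal in both genotypes, 3.85 (3.62 to 4.10) in WT and 3.86 (3.49 to 4.29) in KO. Most reads that hold its inner bases were listed under other entries than its name. With those, reads holding its inner bases were at 4750 and 3951 miRNA RPM in WT and KO caput and at 479 and 434 in WT and KO corpus, a log2 difference of 3.31 in WT and 3.19 in KO. Reads at other starts gave 3.22 and 3.59. All these counts placed both caput libraries above both corpus libraries.

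The remaining 4 miRNAs higher in caput were miR-125b-1-3p, miR-135a-5p, miR-16-5p and miR-181a-1-3p. miR-125b-1-3p, the minor arm of a miR-125b hairpin, was at 279 and 190 miRNA RPM in WT and KO caput and at 130 and 81.2 in WT and KO corpus, with log2 differences of 1.11 in WT and 1.23 in KO. With median-of-ratios scaling the WT value was 0.76. Reads at other starts gave 1.74 in WT and 1.27 in KO, at no more than 12.2 miRNA RPM. The major arm, miR-125b-5p, differed by 1.84 in WT and -0.40 in KO. miR-135a-5p, a miRNA that can target JAK2, was at 126 and 116 miRNA RPM in WT and KO caput against 30.5 and 48.5 in WT and KO corpus (2.05 and 1.26). Its reads at other starts were at most 2.62 miRNA RPM in every library. With all entries and first bases within 3 nt its log2 differences were 1.96 in WT and 1.27 in KO. miR-16-5p, a cell cycle regulator, was listed at 1910 and 1057 miRNA RPM in WT and KO caput and at 13.3 and 431 in WT and KO corpus, but its other starts went the other way, at 52.8 and 29.2 in caput and 113 and 79.2 in corpus (log2 -1.10 in WT and -1.44 in KO).

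The name miR-181a-1-3p stood at 177 and 116 miRNA RPM in WT and KO caput and at 26.3 and 33.0 in WT and KO corpus (log2 2.75 and 1.81). Of its reads only 8.30% and 7.60% in WT and KO caput and 29.4% and 33.0% in WT and KO corpus matched without a mismatch. The letters of 89.6% and 90.4% of them in caput, and of 64.0% and 61.9% in corpus, are those of miR-181a-2-3p in RefSeq, the same arm of the other miR-181a hairpin. The difference was thus mostly one of reads with the miR-181a-2-3p sequence, of which the most abundant is shown here.
leading read listed as miR-181a-1-3p: accaccgaccgttgactgtacc
It was at 86.6 and 57.9 miRNA RPM in WT and KO caput and at 6.31 and 8.22 in WT and KO corpus.

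Among miRNAs lower in caput, both miR-196 forms had the largest differences. These miRNAs derive from HOX clusters and are known to target HOX transcripts, among them Hoxb8. miR-196a-5p was at 14.7 and 12.4 miRNA RPM in WT and KO caput and at 368 and 285 in WT and KO corpus. Corpus exceeded caput 25.1-fold (20.8 to 30.5) in WT and 23.0-fold (19.7 to 27.01) in KO. miR-196b-5p was at 42.7 and 20.8 miRNA RPM in WT and KO caput and at 728 and 686 in WT and KO corpus, 17.1-fold (15.3 to 19.1) and 32.9-fold (29.3 to 37.2) higher in corpus. In both cases the caput and corpus libraries were more than an order of magnitude apart, and reads at other starts gave log2 differences from -3.83 to -5.18. The differences were -3.47 or further from 0 under TMM and -3.41 or further under median-of-ratios factors. In testis miR-196a-5p was at 21.1 and 36.4 and miR-196b-5p at 19.8 and 24.6 miRNA RPM in WT and KO.

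The other tested miRNAs of HOX clusters did not have this pattern. miR-10b-5p, the most abundant miRNA in all 4 libraries, was at 303400 and 373000 miRNA RPM in WT and KO caput and at 238000 and 249400 in WT and KO corpus (log2 0.35 and 0.58). miR-10a-5p was at 173200 and 194400 in WT and KO caput and at 153200 and 192500 in WT and KO corpus (0.18 and 0.02). Neither reached 2-fold. Of the 5 tested members of the list 2 were lower in caput in both genotypes, beside 15.2% of all tested miRNAs, and 0 higher, with medians of -0.08 in WT and -0.22 in KO beside -0.03 and -0.82 over all tested miRNAs.

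miR-222-3p and miR-221-3p, neighbours known to repress the cell cycle inhibitor gene Cdkn1b, were both lower in caput by name. miR-222-3p was at 20.3 and 17.3 miRNA RPM in WT and KO caput and at 184 and 118 in WT and KO corpus, 9.05-fold and 6.82-fold higher in corpus. When precursor-listed reads were added its KO difference was -0.63 on the log2 scale, under 2-fold, while WT was at -2.06. miR-221-3p was at 309 and 189 miRNA RPM in WT and KO caput and at 1157 and 971 in WT and KO corpus (log2 -1.91 and -2.37). The other arm of that hairpin, miR-221-5p, was at 41.1 and 37.3 miRNA RPM in caput and at 155.5 and 81.8 in corpus (-1.92 and -1.13). For both arms of miR-221 each corpus library lay above each caput library.

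miR-141-3p, a member of the miR-200 family that is known to target ZEB transcripts and is typical of epithelia, had the highest mean over the 4 libraries of the miRNAs with a shared difference. It stood at 12340 and 16930 miRNA RPM in WT and KO caput and at 91930 and 84230 in WT and KO corpus, 7.45-fold (7.40 to 7.497) higher in corpus in WT and 4.98-fold (4.95 to 5.0) in KO. With all entries and first bases within 3 nt the log2 differences were -2.89 and -2.31. Its other arm, miR-141-5p, was at 71.8 and 54.0 miRNA RPM in caput and at 107 and 104 in corpus (-0.58 and -0.95), under 2-fold in both genotypes.

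The rest of the miR-200 family did not share that size of difference. miR-200a-3p was at 2225 and 1645 miRNA RPM in WT and KO caput and at 2898 and 3457 in WT and KO corpus (log2 -0.38 and -1.07). miR-200b-3p gave -0.43 and -1.07, and miR-200c-3p 0.45 and -0.98. miR-429-3p was at 0.17 and -0.96. The KO differences of miR-200a-3p and miR-200b-3p were both -0.02 under TMM scaling, and median-of-ratios factors gave 0.04 and 0.05. Of 6 tested members 1 was lower in both genotypes, beside 15.2% of all tested miRNAs, and 0 higher.

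miR-186-5p, which lies in an intron of Zranb2, was at 810 and 474 miRNA RPM in WT and KO caput and at 2944 and 2621 in WT and KO corpus (log2 -1.86 and -2.47). Its groups stayed apart at other starts (-1.48 and -2.05) and with precursor-listed reads (-1.62 and -2.26). miR-30a-5p, one of a family known for roles in epithelial differentiation and autophagy, was at 10800 and 12060 miRNA RPM in WT and KO caput and at 52670 and 38710 in WT and KO corpus (-2.29 and -1.68). Its reads at other starts gave -1.421 in WT and -0.966 in KO, the latter under 2-fold. Of the 7 tested members of the miR-30 family 3 were lower in caput in both genotypes, beside 15.2% of all tested miRNAs, and 0 higher, with medians of -0.94 in WT and -0.91 in KO. The KO differences of these 3, miR-30a-5p, miR-30d-5p and miR-30e-5p, fell under 2-fold with TMM, at -0.63, -0.52 and -0.27. Median-of-ratios factors put them at -0.57, -0.46 and -0.20. For miR-30e-5p, at 472 and 533 in caput and 2000 and 1329 in corpus by name, the count with precursor-listed reads was only -0.79 and -0.74. miR-30d-5p was likewise at -0.65 in WT in that count, where its named reads were at -1.27. The other arms did not go the same way. By name miR-30a-3p was at 2.617 in WT and -0.65 in KO, and miR-30e-3p at 7.501 and 0.028. These were the 2 tested members of the family higher in WT. At other starts miR-30a-3p was higher in both genotypes (2.59 and 1.85), and miR-30e-3p was near level (0.268 and -0.056). miR-30d-3p, below the level filter, was at 2.501 and -4.518 by name.

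**Figure D2:**
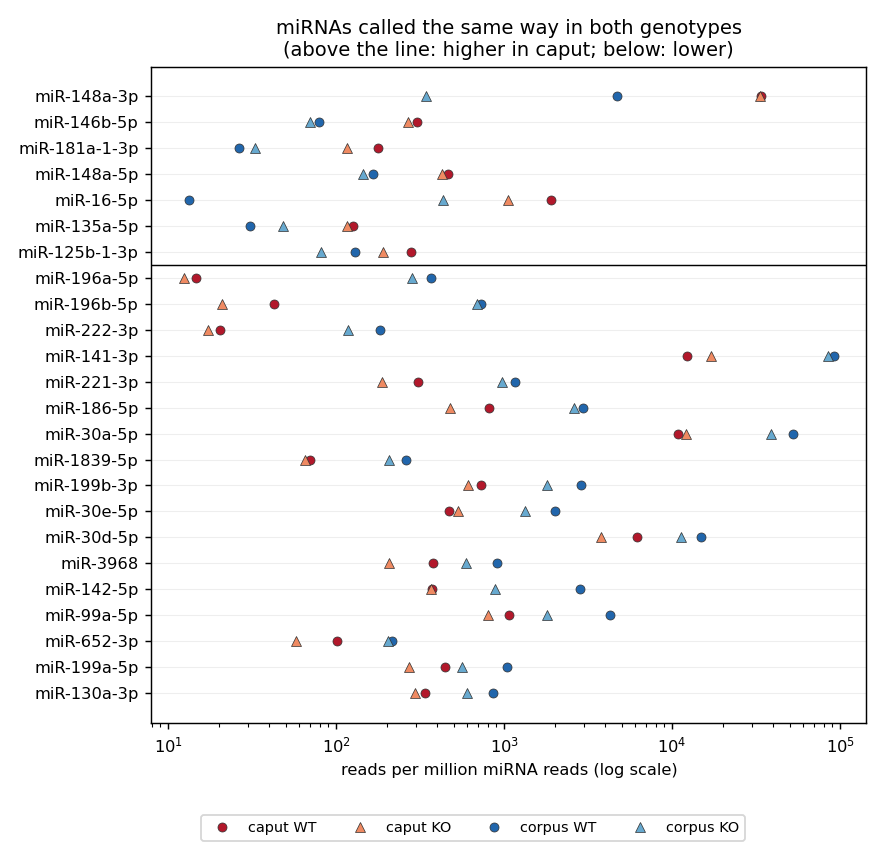
The x axis gives miRNA RPM on a log scale for each miRNA that differed the same way in both genotypes, with circles for WT and triangles for KO, red for caput and blue for corpus. Those above the line were higher in caput, and for the miR-196 forms both caput points lie more than an order of magnitude to the left of both corpus points.

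Markers of other cell types were among the miRNAs lower in caput. miR-199b-3p (counted with the identical miR-199a-3p) and miR-199a-5p, typical of mesenchymal cells, were at 727 and 612 and at 442 and 271 miRNA RPM in WT and KO caput, and at 2859 and 1796 and at 1041 and 564 in WT and KO corpus. The stroma list summed to 1301 and 949 miRNA RPM in caput and to 4094 and 2568 in corpus, with 2 of 3 tested members lower in both genotypes, beside 15.2% of all tested miRNAs. miR-142-5p, a miRNA of blood cells, was at 373 and 369 miRNA RPM in WT and KO caput and at 2833 and 878 in WT and KO corpus. The leukocyte list summed to 1321 and 781 in caput and 3710 and 1525 in corpus, with 1 of 3 lower in both. Another of its tested members, miR-146a-5p, had a log2 difference of 0.44 in WT and -0.30 in KO. These KO differences of miR-199b-3p (-1.55), miR-199a-5p (-1.06) and miR-142-5p (-1.25) were -0.50, -0.01 and -0.20 with TMM. The muscle list had 0 of 3 and the endothelium list 0 of 2 shared differences. The erythroid list summed to 387 and 237 miRNA RPM in WT and KO caput and to 83.3 and 1045 in WT and KO corpus. That sum had no shared direction and was mostly miR-486-5p, except in WT corpus, where miR-486-5p was listed at 1.554. Below the level filter, miR-451a was lower in both caput libraries, at 11.39 and 11.9 against 60.1 and 59.03 in corpus. So were miR-144-3p (4.322 and 5.139 against 15.59 and 16.94) and miR-144-5p (2.095 and 2.323 against 5.805 and 6.876). The remaining member, miR-486-3p, was at most 0.3354 in any of the 4 libraries. The sum of the neuron list went the other way from stroma, at 121 and 130 in caput and 5.81 and 38.9 in corpus. Its members did not all share that direction. The log2 difference of miR-128-3p was 8.05 in WT and -1.38 in KO, and that of miR-124-3p was -1.65 and -2.67. No member of the neuron list reached the level filter, and miR-9-5p was at 51.5 and 47.03 in caput and 0.137 and 0.839 in corpus. The part of such cells in the differences was not tested, and in tissue samples a lower share of a cell type and less RNA per cell cannot be told apart.

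The other miRNAs lower in caput by name were miR-99a-5p, miR-130a-3p, miR-1839-5p, miR-652-3p and miR-3968. miR-99a-5p, of a family known to target mTOR, was at 1071 and 799 miRNA RPM in WT and KO caput and at 4251 and 1792 in WT and KO corpus. miR-130a-3p was at 336 and 293 in caput and at 854 and 601 in corpus, and miR-1839-5p at 70.1 and 65.7 against 260 and 207. miR-652-3p was at 101.2 and 57.4 in caput and at 215 and 204 in corpus, but at a log2 difference of 0.04 in WT with precursor-listed reads. Within KO, TMM moved the differences of these 5 miRNAs to between 0.01 and -0.78.

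The reads under the name miR-3968 differ from that miRNA. They stood at 378 and 207 miRNA RPM in WT and KO caput and at 903 and 594 in WT and KO corpus, and at most 0.0341% of them in any library matched without a mismatch. The most abundant one has 2 listed mismatches and ends in CCA (capitals), as the mature end of a tRNA does.
leading read listed as miR-3968: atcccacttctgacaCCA
It was at 272 and 153 miRNA RPM in WT and KO caput and at 592 and 405 in WT and KO corpus, so each corpus library was above each caput library.

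Of the 17 miRNAs lower in caput in both genotypes, 5 remained lower in both under TMM scaling, and 5 did under median-of-ratios scaling. By value alone miR-196a-5p, miR-196b-5p, miR-222-3p, miR-141-3p, miR-221-3p and miR-186-5p were past 2-fold in both genotypes under all 3 scalings. miR-222-3p was below the level filter with either set of factors. Lists without a shared difference were let-7 (10 tested), miR-29 (3), the miR-17-92 group (5), the miR-23, miR-24 and miR-27 group (5), the miR-34 and miR-449 group (1) and the Dlk1-Dio3 cluster (3). The list of miR-99, miR-100 and miR-125, which also holds miR-10a and miR-10b (9 tested), had 1 shared higher and 1 shared lower member. The miR-15 and miR-16 list (4 tested) had 1 higher, which is miR-16-5p. Of all tested miRNAs 6.25% were higher and 15.2% lower in both genotypes.

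**Figure D3:**
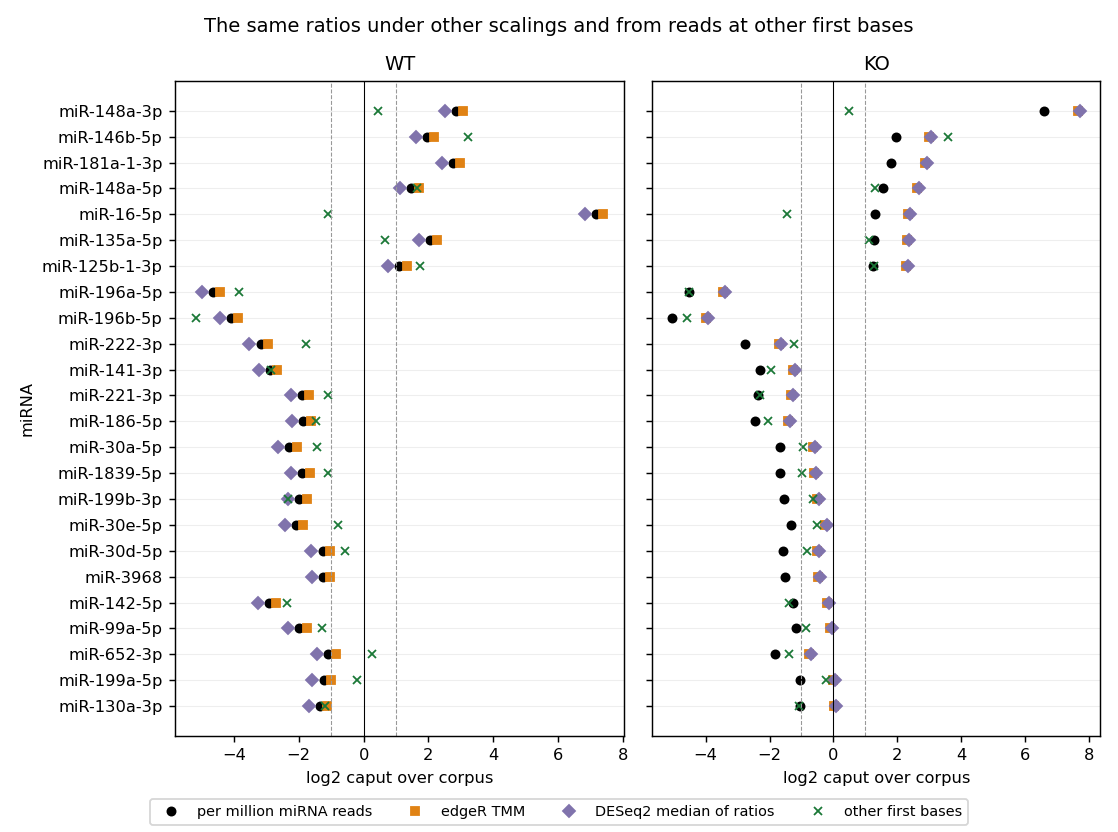
For WT (left) and KO (right) the x axis gives the log2 caput over corpus ratio of each shared miRNA in miRNA RPM (circles), with TMM (squares), with median of ratios (diamonds) and from reads at other first bases only (crosses). In KO both sets of factors lie to the right of the circles, which leaves the miR-196 forms, miR-222-3p, miR-221-3p, miR-141-3p and miR-186-5p beyond the dashed 2-fold line on the left.

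By class, the miRNA share of classified reads was 55.2% and 77.4% in WT and KO caput and 75.3% and 71.4% in WT and KO corpus, a caput over corpus ratio of 0.733 in WT and 1.08 in KO. The tRNA share was 21.5% and 19.5% in caput and 20.1% and 23.0% in corpus (1.07 and 0.848). piRNA reads took 15.8% and 0.655% in WT and KO caput and 0.8998% and 1.37% in WT and KO corpus (17.5 and 0.478), beside 64.1% and 62.8% in testis. None of these 3 classes had a shared direction. Only the mitochondrial class (lower in caput) and the snRNA class (higher) were past 2-fold the same way in both genotypes. Mitochondrial reads took 0.257% and 0.0818% in caput and 1.08% and 0.298% in corpus as listed. The leading mitochondrial read is listed as rRNA in KO corpus, and with 1 entry per sequence the shares were 0.223% and 0.132% in caput and 1.08% and 0.910% in corpus. Most of that corpus share was the leading read alone, at 8721 and 6503 RPM in WT and KO corpus and 749 and 487 in caput. Whether the class stays past 2-fold without this read was not tested. snRNA reads took 0.175% and 0.135% in caput and 0.0539% and 0.0646% in corpus, ratios of 3.24 and 2.09, and 3.08 and 1.42 with 1 entry per sequence.

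piRNA reads with the length (24 to 32 nt) and first base T typical of germ-cell piRNAs were at 135100 RPM in WT caput, 2711 in KO caput, 3128 in WT corpus and 6837 in KO corpus. They made up 85.6% of the class in WT caput and 34.8 to 50.0% in the other 3 libraries. WT caput alone was high, and the order of caput and corpus was opposite in the genotypes. This excess enters every WT caput share and RPM value here, and the WT ratios made from them. Its part in the class differences was not tested.

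Fragments that begin at the first bases of a tRNA made up most of the tRNA class, at 192500 and 174900 RPM in WT and KO caput and at 178100 and 205700 in WT and KO corpus. Amino acids were assigned from the start sequence, and the tRNA-Lys end from its own, by known tRNA sequences and with no tRNA reference used here. tRNA-Gly starts were nearly level, at 121800 and 112100 RPM in caput and 132200 and 122100 in corpus. tRNA-Val starts were at 62940 and 54860 in caput and at 39750 and 57900 in corpus, with no shared direction. tRNA-Leu starts were the only tested amino acid past 2-fold the same way in both genotypes, at 382 and 263 RPM in caput and at 77.6 and 131 in corpus, 4.92-fold (4.68 to 5.17) and 2.01-fold (1.88 to 2.15) higher in caput.

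Within tRNA-Gly the lengths differed between the regions although the sum did not reach 2-fold. The short form of 18 nt was at 62550 and 54280 RPM in WT and KO caput and at 94120 and 81890 in WT and KO corpus (log2 -0.59 in both genotypes). Forms of 28 to 32 nt were at 58030 and 56660 RPM in caput and at 37820 and 39950 in corpus (0.62 and 0.50). Among these, reads of 31 to 32 nt went the other way, at 223 and 211 RPM in caput and 815 and 341 in corpus (-1.87 and -0.69). Of the 18 nt and 28 to 32 nt forms together, the short form made up 51.9% and 48.9% in caput and 71.3% and 67.2% in corpus. In testis it made up 88.6% and 86.4%. Both caput libraries had the forms about level, and both corpus libraries had more of the short form.

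The first base differed as well. Starts at bases 2 to 4 of tRNA-Gly took 0.909% of its reads in WT caput (0.894 to 0.923) and 0.909% in KO caput (0.896 to 0.922), against 0.144% in WT corpus (0.140 to 0.147) and 0.155% in KO corpus (0.147 to 0.163). Reads that start at base 2 were at 620 and 579 RPM in caput and at 60.0 and 74.4 in corpus, 10.3-fold (9.82 to 10.9) higher in caput in WT and 7.78-fold (7.18 to 8.45) in KO. From base 3 they were at 353 and 349 in caput and at 109 and 98.7 in corpus. The genotypes gave nearly the same levels within each region, and the regions did not overlap.

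**Figure D4:**
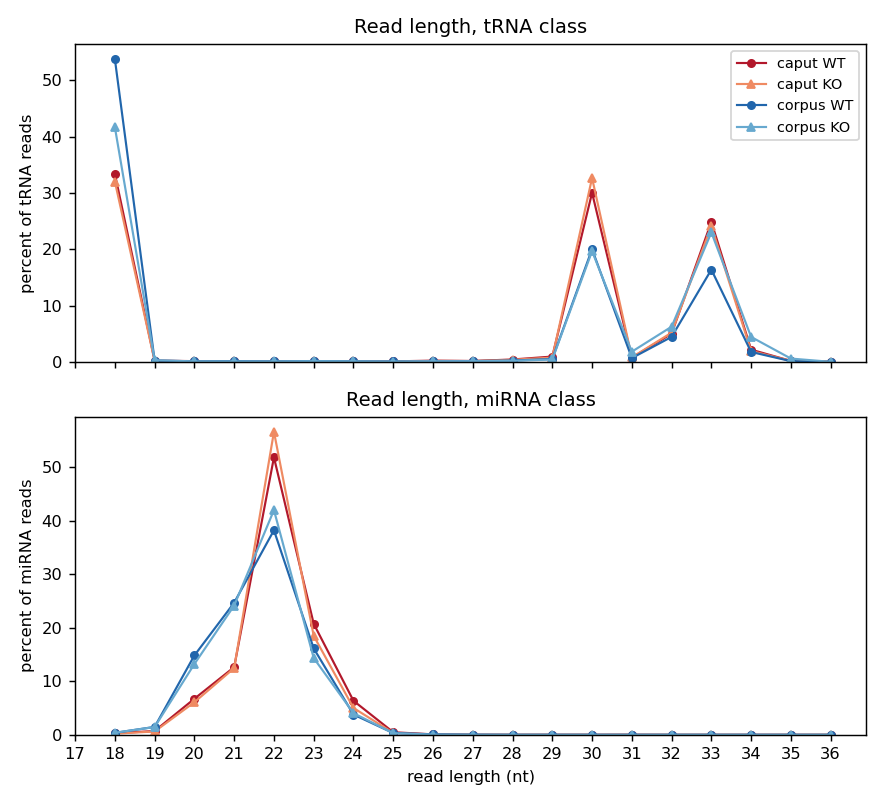
The x axis is read length in nt and the y axis the percentage of reads of a class, with 1 line per library, for the miRNA class and the tRNA class. miRNA reads of 22 nt made up 51.9% and 56.7% in WT and KO caput against 38.2% and 42.0% in WT and KO corpus, and tRNA reads of 18 nt 33.4% and 32.04% against 53.8% and 41.7%.

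Shorter reads were more frequent in corpus in other classes too. Of all classified reads 13.2% and 12.4% were of 20 nt or less in WT and KO caput, and 25.4% and 22.3% in WT and KO corpus. Among miRNA reads the shares were 7.75% and 6.92% in caput and 16.7% and 15.1% in corpus. Of 21 miRNAs with at least 1000 miRNA RPM in each library, 18 had a larger short share in corpus in both genotypes and 1, miR-100-5p, a smaller one. For miR-10a-5p the short share was 2.81% and 2.66% in caput and 8.82% and 8.19% in corpus, and for miR-191-5p it was 0.789% and 0.813% against 3.62% and 3.16%. This pattern was looked for after the tRNA-Gly lengths were seen.

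Reads of 18 to 20 nt that end in CCA, outside the miRNA and piRNA classes, were at 974 and 577 RPM in WT and KO caput and at 2369 and 2210 in WT and KO corpus. Corpus exceeded caput 2.43-fold (2.39 to 2.48) in WT and 3.83-fold (3.74 to 3.92) in KO. Most of them were listed under mRNA records, at 819 and 475 RPM in caput and 2070 and 1872 in corpus. Other reads of that length under mRNA records had no shared direction, at 5448 and 2848 RPM in caput and 3656 and 3814 in corpus. All reads of that length outside the miRNA, piRNA and tRNA classes that do not end in CCA were lower in both caput libraries, at 12120 and 6082 RPM against 15900 and 14790 in corpus (log2 -0.39 in WT and -1.28 in KO). The tRNA-Lys end was at 66.6 and 24.9 RPM in caput and at 258 and 242 in corpus, while all reads that hold its inner part gave log2 differences of -0.72 in WT, under 2-fold, and -2.58 in KO. The second CCA end shown above was at 43.7 and 31.5 against 316 and 164, and the next one at 35.5 and 23.96 against 88.6 and 67.7. Of 32 sequences of 18 to 20 nt ending in CCA with at least 10 RPM in a library of each pair, 23 were lower in caput in both genotypes and 0 higher. Of the 297 entries described next, which are not single sequences, 18.9% were lower and 5.72% higher. Single sequences of that length without a CCA end were not counted this way.

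Across the tRNA, rRNA, snRNA, snoRNA, mRNA and mitochondrial classes, 297 entries had at least 10 RPM in a library of each pair. Of these 17 were higher in caput in both genotypes (5.72%) and 56 lower (18.9%). In WT 89 were higher (30.0%) and 67 lower (22.6%), and in KO 27 were higher (9.09%) and 97 lower (32.7%). The medians were 0.28 in WT and -0.52 in KO on the log2 scale. By class the shared calls were 9 higher and 26 lower of 99 mRNA entries, 2 and 12 of 26 mitochondrial entries, 0 and 1 of 15 rRNA entries, 2 and 0 of 10 snRNA entries, 0 and 3 of 71 snoRNA entries, and 4 and 14 of 76 tRNA entries. Of the 26 mRNA entries lower in caput, 18 had as their leading read one of 18 to 20 nt that ends in CCA, and 0 of the 9 higher ones did, beside 25 of all 99. Such entries are named for an mRNA record, but their leading read has a tRNA-like end.

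Mitochondrial reads as a class were lower in caput, while of 26 mitochondrial entries 12 were lower and 2 higher in both genotypes. The leading read, a 20-mer, was at 749 and 487 RPM in WT and KO caput and at 8721 and 6503 in WT and KO corpus, 11.7-fold (11.4 to 11.9) and 13.4-fold (13.1 to 13.7) higher in corpus. All reads that hold its inner part gave log2 differences of -2.57 and -3.06. Among tRNA entries 12 come from mitochondrial genome records, and 12 of these 12 were lower in caput in both genotypes, with corpus 3.27-fold to 6.49-fold higher in WT and 2.28-fold to 6.37-fold in KO. They summed to 256 and 328 RPM in caput and to 1086 and 1180 in corpus. Of the 64 other tRNA entries 4 were higher and 2 lower in both genotypes. Mitochondrial tRNAs serve translation inside the organelle and are transcribed from its own genome.

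Structural small RNAs had few shared differences. Y RNA, which binds the Ro60 protein, was at 338 and 342 RPM in WT and KO caput and at 1030 and 1660 in WT and KO corpus, and its leading read at 126 and 124.8 against 785 and 985. SNORA44, a box H/ACA snoRNA of the kind that guides pseudouridylation, was at 20.8 and 27.3 RPM in caput and at 154 and 115 in corpus. SNORD57, a box C/D snoRNA of the kind that guides 2′-O-methylation, was at 279 and 264 in caput and at 628 and 543 in corpus. All 3 were lower in both caput libraries than in either corpus library. Higher in caput was an snRNA entry, record FM991918.1, at 758 and 886 RPM in caput and 19.8 and 281 in corpus. A tRNA entry, record M26850.1, was at 1148 and 850 against 527 and 363, and a genomic tRNA copy in record AC138330.4 at 244 and 174 against 16.9 and 62.0. Among mRNA entries record AY140896.1 was at 170 and 118 RPM in caput and 12.7 and 30.9 in corpus. In each of these 4 entries both caput libraries lay above both corpus libraries. The same direction was found for Rnu12, the U12 RNA of the minor spliceosome, which was chosen after its values were seen, at 89.6 and 82.7 RPM in caput and at 0.757 and 11.5 in corpus. Its leading read made up 90.9% of the entry, so the entry rests on 1 sequence.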

How the data were processed

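Small RNA libraries of 18 to 40 nt were compared for 4 pooled samples, with both 13-month testis libraries as a reference level. The authors deposited raw read counts per distinct sequence, matched to miRBase, Rfam or GenBank entries with at most 2 mismatches, per the file headers, and only matched sequences are listed. The submitters' processing notes name TopHat2, Bowtie 0.12.7 and mm9, with no role for small RNAs. Here each sequence was given 1 entry over the 4 libraries (3.87% of reads had another entry in their file) and identical mature sequences were merged. miRNA counts were scaled to reads per 1000000 miRNA reads (miRNA RPM) and others to reads per 1000000 classified reads (RPM). Shares have Clopper-Pearson and ratios exact conditional binomial 95% intervals (scipy 1.17.1). A call needed a 2-fold ratio and an interval that excluded 1. Entries under 100 miRNA RPM, or 10 RPM for other classes, in both libraries of a pair were left out. edgeR 4.0.16 (TMM) and DESeq2 1.42.0 (median of ratios) gave scaling factors only. The calling was tested on simulated data. miRNAs were named by size of the smaller of both differences, by level or from lists, and other entries by the same rule at 100 RPM. The members, lists and sequences were chosen with earlier results of these data known. Of the tested miRNAs 95 of 112 were in the RefSeq table. The caput transcriptome, the cauda and the 2-month libraries were not used here.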

Additional observations from a re-analysis of the deposited data

Results flagged for a closer look

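The results here had opposite directions in WT and KO, and the difference between the genotypes was not tested. Values are log2 caput over corpus in WT, in KO, and WT minus KO. The piRNA share was at 4.13 and -1.06 (difference 5.2). Starts of tRNA-Glu, the tRNA of glutamate, were at 305 and 122 RPM in WT and KO caput. In WT and KO corpus they were at 29.7 and 15780, or 3.36 and -7.01 (10.37). KO corpus alone was high. Whether missing lines of abundant reads made the other libraries low was not tested.

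Of 3 miRNAs expressed in spermatogenic cells, miR-741-3p was at 8.52 and -2.71 (11.24). miR-871-3p gave 4.85 in WT and -2.97 in KO (7.82), and miR-881-3p gave 1.21 and -2.67 (3.88). WT caput had the highest level of each among the 4 libraries, and at other first bases the directions were the same.

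In the miR-27 family miR-27a-3p was at 7.82 and -4.23 (12.05) and miR-27b-3p at 7.24 and -5.74 (12.98). Reads at other first bases, which cannot tell both apart, were near level at 438 and 464 miRNA RPM in WT and KO caput and 371 and 446 in WT and KO corpus. miR-127-3p was at 7.13 and -7.12 (14.25) and miR-411-5p at 1.85 and -2.78 (4.63), both of the imprinted Dlk1-Dio3 cluster. miR-340-5p was at 7.20 and -6.91 (14.11) and miR-101a-3p at 6.43 and -5.08 (11.52). miR-15a-5p was at 6.46 and -1.61 (8.07), miR-92a-3p at 3.05 and -2.20 (5.25), let-7d-3p at 4.21 and -1.10 (5.31) and miR-486-5p, a miRNA of red cells, at 7.89 and -2.15 (10.04). At other first bases miR-101a-3p was lower in caput in both genotypes (-1.28 and -1.27), and so was miR-15a-5p (-1.08 and -1.29). miR-127-3p had the opposite signs there (-1.30 and 1.47), and miR-340-5p (-0.84 and 0.30) and miR-411-5p (-0.62 and -0.82) did not reach 2-fold. The signs were as above for miR-92a-3p (1.06 and -1.12), let-7d-3p (1.34 and -1.38) and miR-486-5p (0.44 and -1.66), the last under 2-fold in WT. WT corpus had the lowest listed level of miR-27a-3p, miR-27b-3p, miR-127-3p, miR-340-5p, miR-101a-3p, miR-15a-5p, miR-92a-3p, let-7d-3p and miR-486-5p. A missing line of an abundant read can give such a low value. KO caput was also far below WT caput and KO corpus for miR-27a-3p, miR-27b-3p, miR-127-3p, miR-340-5p and miR-101a-3p. It listed them at 30.55, 208.8, 11.55, 3.872 and 20.35 miRNA RPM, so the same limit holds for their KO differences.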

How the results depend on the processing

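No paired analysis was possible because each group is 1 pooled library and no result comes from a test, so no library could be left out either. The 7 miRNAs higher in caput in both genotypes became 18 with TMM, 11 with median of ratios, 15 at a filter of 10 miRNA RPM, 2 at 1000 and 1 at 4-fold. The 17 lower became 5, 5, 40, 7 and 4. Reads without a mismatch, reads of 20 to 24 nt, sequences listed in all 4 libraries, the entry of each file and inner-sequence counts kept both counts within 1.5 times. Single miRNAs reversed as follows, on the log2 scale: miR-16-5p at other starts (-1.10 in WT, -1.44 in KO), miR-652-3p in WT (0.27 at other starts, 0.043 with precursor-listed reads), and in KO miR-130a-3p (0.014 with TMM, 0.079 with median of ratios) and miR-199a-5p (0.057 with median of ratios).

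The tRNA share ratio (1.07 in WT, 0.848 in KO) was 0.377 and 1.21 as distinct sequences at equal depth, 1.00 and 0.707 without the 10 most abundant sequences, 1.21 and 0.877 with sequences listed in all 4 libraries, and 0.965 and 0.875 without mismatches. In the same order the miRNA share ratio (0.733, 1.08) was 0.332 and 1.21, 0.598 and 1.07, 0.821 and 1.06, and 0.762 and 1.06. The piRNA share ratio (17.5, 0.478) was 2.71 and 0.504, 19.4 and 0.406, 13.3 and 0.587, and 18.4 and 0.446, and in KO 0.493 with 1 entry per sequence. Of other entries the 17 higher in caput were 4 at a filter of 100 RPM, and the 56 lower were 15 there, 29 without mismatches and 37 without reads that end in CCA. A count of 0 allows 0.103 to 0.359 RPM in these libraries. The cause of these changes was not tested.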

Other observations

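Some mRNA entries held fragments that were scarcer in corpus than in caput. They were chosen after their values were seen. Fragments of Lcn5, which encodes a lipocalin secreted by the epididymis, were at 11.3 and 11.7 RPM in WT and KO caput and at 0.482 and 0.1197 in WT and KO corpus. Fragments of Adam7, a gene of an epididymal membrane protein of the ADAM family, were at 25.6 and 10.4 RPM in caput and at 0.516 and 0.957 in corpus. Fragments of Glul, the gene of glutamine synthetase, were at 22.9 and 11.9 RPM in caput and at 2.00 and 4.19 in corpus. For all 3 genes both caput libraries lay above both corpus libraries.

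Reads listed under Dnm3os, the transcript that holds the precursors of miR-199a-2 and miR-214, were at 15.6 and 21.8 RPM in WT and KO caput and at 98.2 and 48.8 in WT and KO corpus. The leading one is the mature miR-199b-3p sequence with 1 more base, and went in the same direction as miR-199b-3p itself.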
